A study of Mus musculus with 4 samples.

Results

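Replication-dependent histone genes were examined in a list of RNA sites bound by NAT10 in mouse 32D cells. The members were the rows of the list whose gene symbol names a clustered H1, H2A, H2B, H3 or H4 gene. They came to 41 of the 4172 distinct peaks in the list. The peaks lay on 27 genes, of 67 protein-coding histone genes that the same names, current or older, find in the RefSeq gene table. NAT10 is the acetyltransferase that places N4-acetylcytidine (ac4C) on RNA, and the site list comes from eCLIP, in which RNA is fixed to its bound proteins with UV light and then recovered with an antibody and sequenced. The libraries were 2 NAT10 immunoprecipitates and 2 inputs made with no antibody, all of wild-type 32D cells, a line from mouse bone marrow grown with interleukin-3. A line in culture stands in here for stem cells, and the labels leave unsaid if libraries of 1 kind were grown as separate cultures. A peak list gives no expression level, so the cells were not checked against markers of their type.

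Histones package DNA into nucleosomes. H3 and H4 form the central tetramer, H2A and H2B join it as dimers, and H1 binds the linker DNA between nucleosomes. The replication-dependent genes are short, without introns and packed in clusters, and each protein is encoded by many near-identical copies. Their mRNAs accumulate in S phase and, unlike other mRNAs, end in a conserved stem-loop in place of a poly(A) tail.

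The authors deposited 1 value of each kind per peak and none per library, so no spread between replicates could be computed and no test over samples was possible. Fold is given below on the log2 scale, as immunoprecipitate over input. The second value is -log10 p, and both are the authors' own. No peak in the list is below a log2 fold of 3.00 or has a -log10 p under 3.07, so a gene without a listed peak is not shown to be unbound. The read depth of the libraries was not used here. Copies of a histone gene share long stretches of sequence, and the handling of reads with several matches is not given in the sources used, so the single copy behind a peak is uncertain.

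How alike the copies are can be seen in the first 16 coding bases of the genes with a peak. They are shown for each such gene whose stretch lies whole within the first 50 transcribed bases held by the RefSeq promoter table (build GRCm38.p6, another build than that of the peaks). Capitals mark bases unlike those of the gene listed first in each family, and all lines run 5′ to 3′.
H4c4 (chr13:23581602-23581617, plus strand): atgtctggacgcggga
H4c3 (chr13:23698434-23698449, minus strand): atgtctggacgTggTa
H4c6 (chr13:23551628-23551643, minus strand): atgtctggTcgTggTa
H3c6 (chr13:23562350-23562365, minus strand): atggctcgtactaagc
H3c3 (chr13:23745482-23745497, minus strand): atggctcgtactaagc
H3c10 (chr13:21717659-21717674, plus strand): atggctcgtactaagc
H3c11 (chr13:21783355-21783370, minus strand): atggctcgtactaagc
H2bc6 (chr13:23585941-23585956, minus strand): atgcctgagccagcca
H2bc8 (chr13:23571433-23571448, plus strand): atgccCgagccTgcGa

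The 3 H4 genes with a peak all differed in this stretch, H4c3 from H4c4 at 2 bases and H4c6 from H4c4 at 3. The 4 H3 genes were identical, as was H3c8, which had no peak. H2bc8 differed from H2bc6 at 3 bases. The first 50 transcribed bases, which include the 5' leader, were compared over all histone genes. Over the 24 genes with a peak that the promoter table holds, the longest run shared with any other histone gene had a median of 11 nt (8 to 27 nt). Over the 38 genes without a peak it had a median of 13 nt (8 to 50 nt). Runs of 30 nt or more occurred in 0 genes with a peak and in 6 without one, among them H2bc23 and H4bc24, an H2B gene despite its symbol, which were identical over the window. Only 2 of 41 histone peaks were in the 5' UTR class, so the window may miss the sequence under most peaks. That sequence was not read, and copies unlike in the window can be alike there. The part of shared sequence in which genes were listed was not tested.

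Of the histone genes 27 of 67 had a peak, or 40.3% (exact Clopper-Pearson 95% interval 28.5 to 53.0, counting error only). Among all 21900 protein-coding genes of the table the share was 7.33%. The background holds many genes that 32D cells may not transcribe. In bulk libraries fewer cells of a type, such as cells in S phase, and less RNA per cell cannot be told apart, and RNA abundance was not used here. With only the peaks above the median fold of the whole list, 8 histone genes had a peak, or 11.9%, against 3.95% of all protein-coding genes.

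The 2 proteins of the central tetramer and the linker histone had similar shares of genes listed. H4 had 7 of 13 genes with a peak (53.8%, 95% interval 25.1 to 80.8), H3 had 6 of 12 (50%, 21.1 to 78.9) and H1 had 3 of 6 (50%, 11.8 to 88.2). H2B had 8 of 18 (44.4%, 21.5 to 69.2). H2A had the lowest share, 3 of 18 (16.7%, 3.58 to 41.4), and its interval overlapped those of the other 4 families. The family totals include 5 genes found by an older name alone, H1f6, H2aw, H2bu2, H4bc24 and H4f16, which had no listed peak. Whether each member is transcribed in these cells was not tested. The difference between families was not tested.

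H2A and H2B genes often stand head to head, transcribed away from each other from a shared stretch between them. Of 11 such neighbouring pairs whose strands were known, 1 had peaks on both genes, 3 on the H2B gene only, 0 on the H2A gene only and 7 on neither. The pair listed on both sides was H2ac15 and H2bc15, whose nearest peaks lay 510 nt apart on opposite strands. In the other 3 pairs the listed gene was H2bc13, H2bc8 or H2bc4, and its partner H2ac13, H2ac8 or H2ac6 had no listed peak.

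The share of genes with a peak is given by cluster, and the difference between clusters was not tested. The second cluster of chromosome 13 held 18 of 31 genes with a peak (58.1%), and its longest run of neighbours without one was 3 genes. In the first cluster of chromosome 13 there were 8 of 23 (34.8%), all among the first 10 genes, from H2bc13 to H3c11. The 13 genes that follow, from H2ac22 to H2bc11, had no listed peak. On chromosome 3 H2bc18 was listed, and the other 9 genes were not. H2bu2 and H2aw on chromosome 11 and H4f16 on chromosome 6 had no listed peak.

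**Figure D1:**
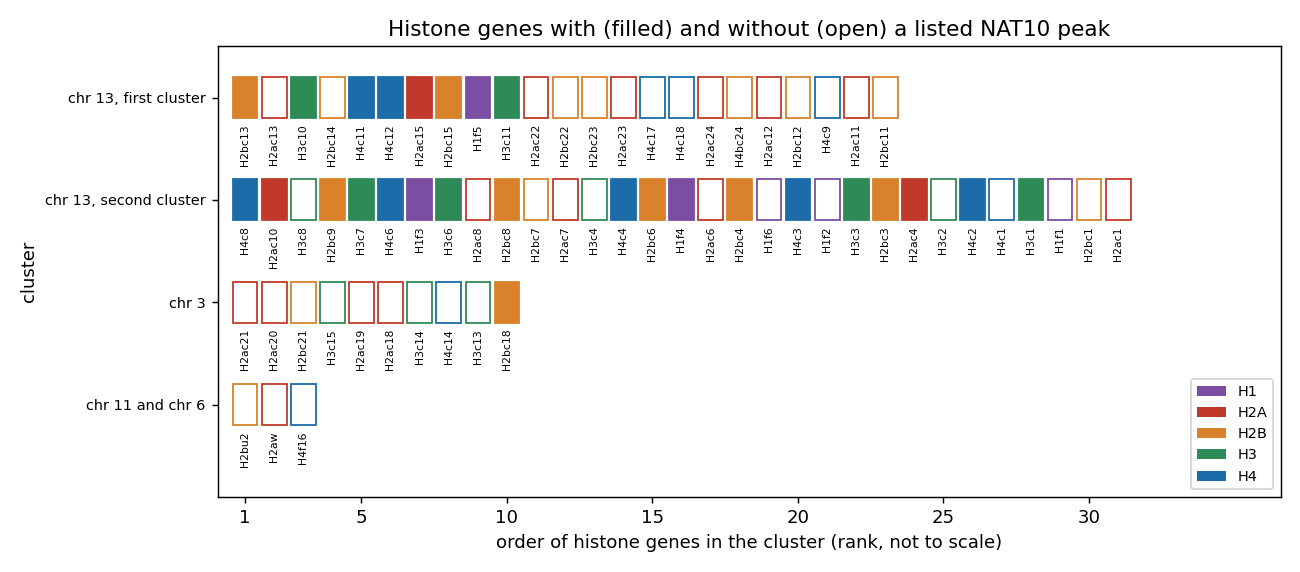
Each box is 1 histone gene, in its order along the cluster (order only, not to scale; gene order from the RefSeq table), coloured by family and filled where the gene has a listed NAT10 peak. Filled boxes make up 18 of 31 in the second cluster of chromosome 13, 8 of 23 in the first, where the last 13 are open, and 1 of 10 on chromosome 3.

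Most listed histone peaks were weaker than the typical peak of the list. Their median log2 fold was 4.20 (range 3.04 to 7.14), against 4.60 over all peaks, and 10 of 41 (24.4%) lay above that median. Taking the strongest peak of each gene, the histone median was 4.31, against 4.69 over all genes with a peak. The median -log10 p was 5.29, against 5.68 over all peaks. Histone genes also had few peaks each, 1.52 on average, against 2.58 over all genes in the list. Transcript length was not taken into account, and 25 of the 27 genes are under 1000 nt, so peaks per base are not compared. A single peak was listed for 16 of the 27 genes, 2 peaks for 8 genes and 3 peaks for H4c4, H1f4 and H2bc6.

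H4c4, a gene of the nucleosome core, carried the histone peak with the highest fold and the 3 with the highest -log10 p. Its 3 peaks touched each other and formed a single stretch of 324 nt at chromosome 13, 23765624 to 23765947 (GRCm39, plus strand), which is 80.6% of the gene's RefSeq length of 402 nt. From 5′ to 3′ the log2 folds were 3.04 over 167 nt and 3.08 over 86 nt, both in the exon class, and 7.14 over the last 71 nt, in the 3' UTR class. The last piece is a 141-fold excess over input and ranks 194 of 4172 by fold.

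The -log10 p of the 3 H4c4 pieces was 27.6, 22.0 and 32.5. All 3 exceed those of every other histone peak, the next being 15.7 on H2bc15. Among the 45 peaks within 0.1 of the first piece's log2 fold, 95.6% had a lower -log10 p, and their median was 5.04. For the second piece the share was 92.3% of 65 peaks. Like shares were found for peaks of H3c3 (95.5%), H4c3 (92.6% and 90.5%), H2ac10 (92.2%) and H1f4 (90.2%), so H4c4 was not alone in this. At the other end, the share was 3.17% and 0% for the pieces of H2bc13, 0% for H2bc4 and 1.65% for H2bc9. The end piece was ordinary in this respect, with a lower -log10 p in 35.9% of the 39 peaks of like fold.

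The other H4 genes differed widely in strength. H4c6 had 1 peak, in the 3' UTR class, at chromosome 13, 23735474 to 23735527 (minus strand), at 5.99 in log2 fold and 14.1 in -log10 p. H4c12 had an exon peak of 4.65. H4c3 had touching pieces of 4.61 in the exon class and 4.07 in the 3' UTR class, which together covered 199 nt, or 53.1% of the gene. The pieces of H4c11 lay 2 nt apart, with 3.16 in the exon class and 3.60 in the 3' UTR class. H4c8 (3.48) and H4c2 (3.38) each had 1 peak in the 3' UTR class. H4c1, H4c9, H4c14, H4c17, H4c18 and H4f16 had no listed peak.

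H3 genes encode the other protein of the tetramer, whose tail carries many of the known histone marks. H3c6 led, with an exon peak of 5.08 at chromosome 13, 23746186 to 23746271 (minus strand) and, 29 nt further 3′, a 3' UTR peak of 4.30. H3c1 had touching pieces of 3.79 in the exon class and 4.31 in the 3' UTR class, the second at 23945890 to 23945934. The remaining H3 genes had 1 exon peak each, H3c3 with 4.20, H3c11 with 4.19, H3c10 with 4.05 and H3c7 with 3.83. Among these H3c3 had the highest -log10 p of the family, 9.48, and 95.5% of the 583 peaks of like fold lay below it. The H3 genes without a listed peak were H3c2, H3c4, H3c8, H3c13, H3c14 and H3c15.

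H2B genes held 14 peaks, the most of any family, and 11 of these were in the exon class. H2bc15 had touching pieces of 5.27 and 6.10 at chromosome 13, 21938318 to 21938450 (plus strand), with -log10 p up to 15.7. H2bc18, the listed gene of chromosome 3, had a like pattern, with touching exon pieces of 4.91 and 5.72 at 96177086 to 96177240 (plus strand). In both genes the piece nearer the 3' end had the higher fold. H2bc9 had 1 peak of 191 nt in the 5' UTR class, the widest histone peak, with a log2 fold of 5.07. H2bc8 had the only other peak in the 5' UTR class, 3.14 over 134 nt, and 217 nt further 3′ an exon peak of 4.06. The first 16 coding bases of H2bc8 lie within its first 50 transcribed bases, so that leader is shorter than 134 nt. The leader of H2bc9 was not read, and its peak covers 36.6% of the gene's RefSeq length of 522 nt. The class is the authors' own and was not checked, so neither peak is shown to lie within a leader. H2bc13 had touching exon pieces of 4.46 and 4.34, H2bc3 an exon peak of 4.41 and H2bc4 a 3' UTR peak of 4.05. The RefSeq table gives H2bc4 a span of 8282 nt, and which transcript holds its peak was not tested.

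H2bc6 was the member whose peaks lay farthest apart. Its 3 exon peaks had log2 folds of 4.31, 4.36 and 3.38 from 5′ to 3′, and the third lay 33110 nt from the second. The RefSeq table gives this gene a span of 37455 nt, and 2 start sites are held by the promoter table, while most histone genes are well under 1000 nt. The 2 upstream peaks and the third lie too far apart to share a single compact histone mRNA. Which transcript holds each peak was not tested. H2bc1, H2bc7, H2bc11, H2bc12, H2bc14, H2bc21, H2bc22, H2bc23, H2bu2 and H4bc24 had no listed peak.

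H2A and H1 had no peak above the median fold of the list, though the peak of H2ac4 equalled that median. The H2A genes were H2ac4 with 4.60 in the 3' UTR class, at chromosome 13, 23935467 to 23935572 (plus strand), H2ac10 with 4.22 in the exon class at 23718318 to 23718447 and H2ac15 with 3.74 in the exon class. H2ac1, H2ac6, H2ac7, H2ac8, H2ac11, H2ac12, H2ac13, H2ac18, H2ac19, H2ac20, H2ac21, H2ac22, H2ac23, H2ac24 and H2aw had no listed peak. Of the linker histones H1f3 had 4.38 in the 3' UTR class, on a peak of 30 nt at 23739938 to 23739967. H1f4 had 3 touching exon pieces of 3.64, 3.92 and 3.56 from 5′ to 3′, an even stretch of 184 nt at 23806247 to 23806430 (minus strand). Its -log10 p of 10.1, 10.1 and 7.92 lay above those of 89.2%, 90.2% and 81.0% of peaks of like fold. H1f5 had an exon peak of 3.59, and H1f1, H1f2 and H1f6 had none listed.

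**Figure D2:**
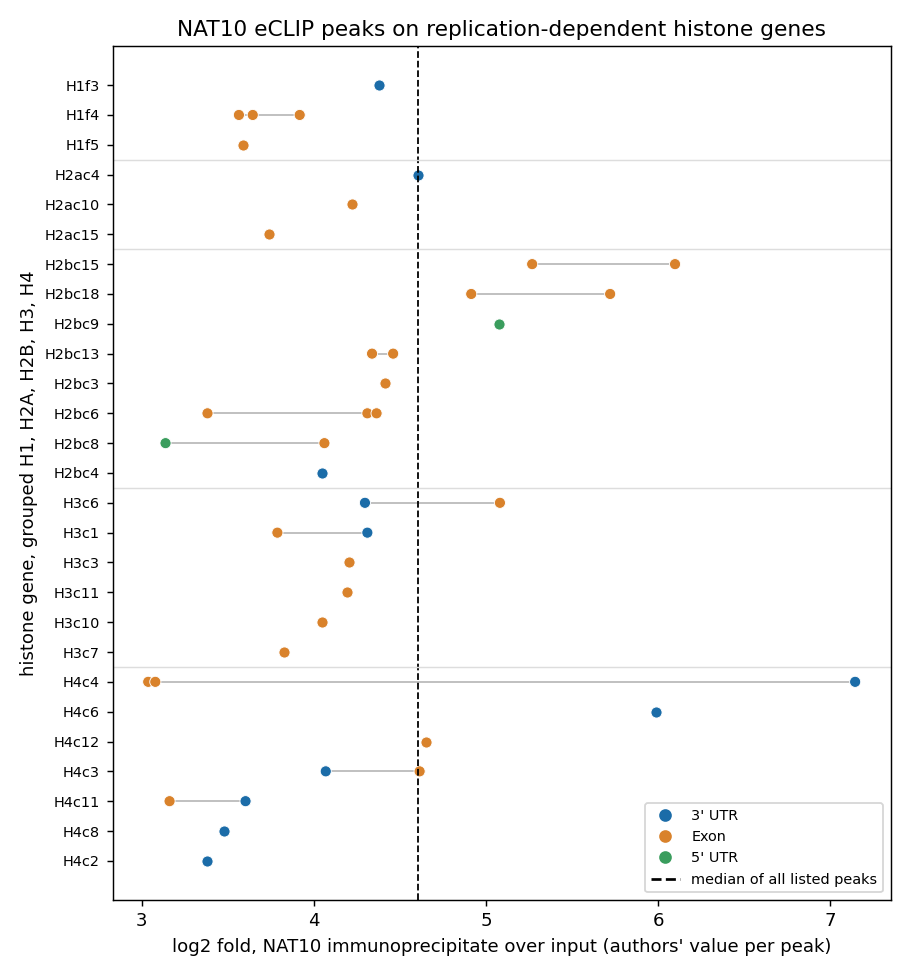
Each point is 1 listed peak, placed by its log2 fold over input (horizontal axis) on its histone gene (vertical axis, grouped by family and sorted by the strongest peak), coloured by the authors' class; grey lines join peaks of a gene and the dashed line is the median of all listed peaks, 4.60. Of 41 points 10 lie to the right of the line, on 4 H4 genes, 3 H2B genes and 1 H3 gene.

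By the strongest peak of each gene, the family medians were 4.61 for H4, 4.44 for H2B, 4.22 for H2A, 4.20 for H3 and 3.92 for H1. The ranges of neighbouring families in this order overlapped, and with 3 to 8 genes each and no replicate values the order was not tested. Above the median fold of the list there were 4 H4 genes (H4c4, H4c6, H4c12 and H4c3), 3 H2B genes (H2bc15, H2bc18 and H2bc9) and H3c6 of the H3 family.

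A -log10 p above 10 was reached by 10 histone peaks (24.4%) on 6 genes, close to the 26.6% of all peaks. The genes were H4c4, H2bc15, H4c6, H2bc18, H1f4 and H4c3. Exact fold values that recur on other peaks were found for 27 of 41 histone peaks (65.9%), against 78.1% of all peaks. The fold of H3c11, for example, stood on 110 peaks of the list, and that of H3c10 and H2bc4 on 91. The folds of all 3 H4c4 pieces and all 3 H1f4 pieces occurred once.

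**Figure D3:**
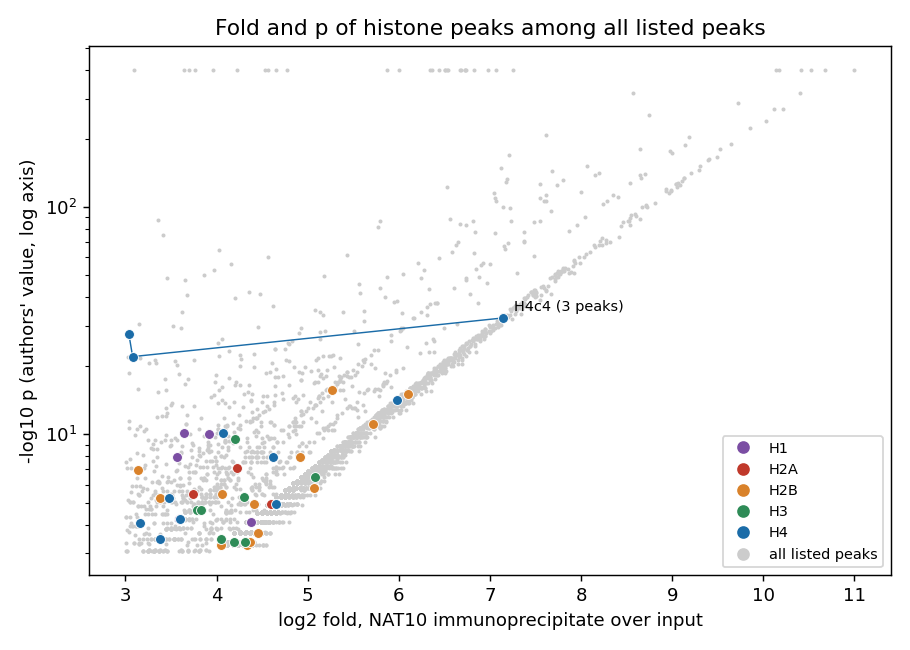
Log2 fold over input (horizontal axis) against -log10 p (vertical axis, log scale) for histone peaks, coloured by family, and all 4172 listed peaks in grey; a line joins the 3 pieces of H4c4. The exon pieces of H4c4 sit at a fold near 3 with -log10 p of 27.6 and 22.0, above 95.6% and 92.3% of peaks of like fold, while its end piece lies at 7.14 and 32.5 among the grey points.

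Along the mRNA, 28 of 41 histone peaks were in the authors' exon class (68.3%, 95% interval 51.9 to 81.9), 11 in the 3' UTR class (26.8%, 14.2 to 42.9) and 2 in the 5' UTR class (4.88%, 0.596 to 16.5). Over all peaks the shares were 36.7%, 57.6% and 5.68%. Histone 3' UTRs are very short, and the lengths of the transcript parts were not used here, so these shares do not compare the placement of NAT10 per base. Histone peaks in the 3' UTR class had a median log2 fold of 4.30 and those in the exon class 4.20. Peaks of both classes occurred on 5 genes. By these labels the 3' UTR piece was the stronger in H4c4, H3c1 and H4c11, and the exon piece in H4c3 and H3c6.

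Single histone peaks had a median width of 76 nt (25 to 191 nt), against 79 nt over all peaks. Touching pieces made up 7 stretches, and joining them left 32 regions, with a median width of 122.5 nt. The whole list treated the same way had a median of 97 nt. Over the 25 genes with a peak whose RefSeq length is under 1000 nt, peaks covered a median of 24.7% of the gene (3.87 to 80.6%), and more than 50% in H4c4 and H4c3 alone. Strands were even, with 20 peaks on the plus and 21 on the minus strand.

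Most replication-independent histone variants are made throughout the cell cycle, and mostly from polyadenylated mRNAs. Of 11 variant genes 7 had a peak (63.6%, 95% interval 30.8 to 89.1), against 7.33% of all protein-coding genes. They held 19 peaks in all. Replication-dependent histones had 11 of 41 peaks in the 3' UTR class (26.8%), against 12 of 19 (63.2%) for the variants and 57.6% of all peaks. The other variant peaks were 6 in the exon and 1 in the 5' UTR class. H1f0, the linker histone of resting and differentiating cells, had 5 peaks, up to 5.46. The 3 listed replication-dependent H1 genes had 1 of 5 peaks in the 3' UTR class, against 5 of 5 for H1f0. Replication-dependent H3 genes had at most 2 peaks each, against 4 on H3f3b (up to 5.78, 3' UTR), which encodes the variant H3.3. H2az1 had 3 peaks (up to 5.28), Macroh2a1 3 (up to 5.08) and Cenpa, the centromeric H3, 2 (up to 4.66). H2aj had 1 exon peak (4.35), and H2ax, the variant phosphorylated at DNA breaks, 1 in the 5' UTR class (3.69). H3f3a, H2az2, H1f10 and Macroh2a2 had no listed peak. The difference between the groups was not tested, and the peak numbers were not set against transcript length.

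Ribosomal protein mRNAs, also short and abundant, were set beside the histones. Unlike histones, most ribosomal proteins come from a single functional gene, whose other genomic copies are mostly processed pseudogenes. The exon class held 68.3% of the 41 histone peaks, against 70.9% of 165 peaks on large-subunit genes and 73.0% of 137 peaks on small-subunit genes. A peak was listed for 40.3% of histone genes, against 76.9% of large-subunit, 90.3% of small-subunit and 7.33% of all protein-coding genes. Listed histone genes had 1.52 peaks each with a median width of 76 nt, against 4.13 peaks of 44 nt for the large and 4.89 peaks of 39 nt for the small subunit. These differences were not tested.

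**Figure D4:**
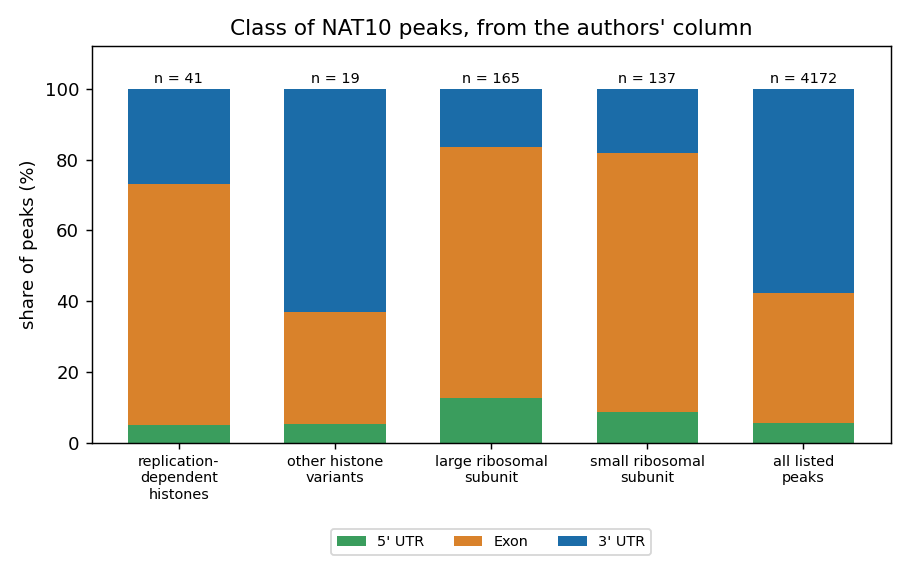
Bars show the share of peaks (percent, vertical axis) in the authors' 5' UTR, exon and 3' UTR classes for each gene group, with the number of peaks above. The exon class holds 68.3% of replication-dependent histone peaks, 31.6% of variant peaks, 70.9% and 73.0% of ribosomal protein peaks and 36.7% of all peaks.

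Genes that act on histone mRNA or protein were taken from lists of known factors. Of 19 factors of histone mRNA processing and decay 2 had a peak (10.5%, 95% interval 1.30 to 33.1), against 7.33% of all genes. They were Cpsf3 (2 peaks, up to 4.26), the endonuclease that cuts the end of histone transcripts, and Eri1 (4.55, 3' UTR), the exonuclease that trims it. Slbp, which binds the stem-loop, and Npat, which activates the histone genes in S phase, had no listed peak. DNA replication factors, made in the same phase of the cell cycle, had a peak in 1 of 29 genes (3.45%, 0.0873 to 17.8), Rfc5 (4.26). Histone chaperones had 7 of 18 (38.9%, 17.3 to 64.3), with 30 peaks. These were Npm1 (9 peaks, up to 6.03), Set (3, up to 5.36), Rbbp4 (6, up to 5.35, all exon), Nap1l1 (7, up to 5.10), Atrx (4.91), Anp32b (3, up to 4.43) and Nap1l4 (4.43).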

How the data were processed

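Files of 4 libraries (2 NAT10 immunoprecipitates and 2 inputs) were summarised by the authors in 1 peak list. Per the file headers it holds a p column, whose deposited values exceed 3 and were read as -log10 p, and a fold column, which the authors left without a unit. The deposited fold was read as log2, because 332 of its 1345 distinct values have another value exactly 1 above them (within 2e-06), against 0 at steps of 0.9 or 1.1. Another value lies 0.5 above 388 of them, a step that a mean of 2 log2 ratios can give. The unit remains a reading of the values. The submitters' processing notes name GRCm39 as the build. Aligner, peak caller, cut-offs and the handling of replicates and multi-mapped reads were not given in the sources used.

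Of 1627 gene names in the list, 1609 matched the RefSeq gene table (GRCm38.p6) by symbol or by a synonym of 1 gene, all 27 histone names included. Of 67 histone genes, 62 carry a current family symbol and 5 were added by an older name. That table served for names, lengths and gene order. Peaks of 1 gene that touch were joined where stated. Clusters were split at gaps over 1000000 nt. The range given with a median is the lowest and highest value. Every histone gene is named; the 2 strongest genes of each family and those with the most peaks are given with all peaks. The members and lists were chosen with earlier results of these data known, so no set test was made. Scripts (Python 3.11.15, pandas 2.3.3, SciPy 1.17.1) were tested on simulated data. No values per library were used, so no model over replicates could be fitted.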

Additional observations from a re-analysis of the deposited data

How the results depend on the processing

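Of 15 alternatives, 13 left the value within the 95% binomial interval of the reported one or, for the number of peaks, within 1.5 times. These covered the number of peaks with touching peaks merged (32), the median log2 fold by the strongest (4.31) or median peak (4.20) of each gene, the class shares by the strongest peak or by stronger peaks, and the share of genes by current symbols alone (43.5%). Alternatives chosen after seeing the data were the share without genes whose first 50 transcribed bases equal another's (41.5%), the share for chromosome 13 alone (48.1%) and the median fold without H4c4 (4.21). The genes left out of the first, H2bc23 and H4bc24, had no peak, so that share could only rise. It does not probe copies that are alike elsewhere. The other 2 moved. With only peaks above the list's median fold, the share of histone genes was 11.9%, and the same demand lowers the share of all genes to 3.95%. With touching peaks merged, the median width was 122.5 nt, by construction wider. No paired analysis was possible because the list holds no value per library. Depth per peak is unknown, and the list shows no binding below its lowest fold.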
